A study of Mus musculus with 12 samples.

Results

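Autophagy genes were examined in resident peritoneal macrophages of C57BL/6 mice, the macrophages that live in the abdominal cavity. The set holds 37 named genes of the 54532 in the deposited table, each found once by its symbol, from the kinase complex that starts autophagy to the receptors that choose its cargo. Cultures spent 24 h in DMEM whose buffer was either MOPS or HEPES. They then received LPS, a bacterial cell-wall component, at 10 ng/ml for 2 h, or were left untreated. The 4 groups of 3 RNA-seq libraries were MOPS with LPS, HEPES with LPS, MOPS and HEPES. The study's title concerns extracellular acidity, and its design text gives a pH of 6.8 or 7.4 and lists MOPS before HEPES. The acidic medium is therefore taken to be MOPS from word order alone, and since buffer and pH changed together, every comparison below is of the whole medium. The labels do not say whether the libraries came from separate mice, pools or cultures, so every p-value reflects library-to-library spread only, which may be technical. Libraries carry their numbers in the titles, MOPS 1 to 3, HEPES 4 to 6, MOPS with LPS 7 to 9 and HEPES with LPS 10 to 12. The labels give C57BL/6 as the strain of all groups and no other allele, and all cells were cultured.

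Autophagy wraps cytoplasm, damaged organelles or bacteria in a new membrane sac and delivers it to lysosomes. The ULK kinase complex starts the process, and a class III PI3-kinase complex then marks the site with a phosphorylated lipid. WIPI, ATG2 and ATG9 proteins bind that lipid or supply membrane. Ubiquitin-like conjugation steps attach the small proteins LC3 and GABARAP to the sac, and cargo receptors tie ubiquitin-tagged material to them. In macrophages the same machinery acts on swallowed microbes and limits inflammasome activity. RNA levels do not measure the flow of material through autophagy, which was not analysed here.

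Library totals ran from 21210474 to 24521749 counts in MOPS with LPS, 22447187 to 23506654 in HEPES with LPS, 20114613 to 24734853 in MOPS and 22433773 to 24669239 in HEPES. CPM here are counts scaled to library size times its TMM factor. Those factors averaged 0.854 in MOPS with LPS, 0.801 in HEPES with LPS, 1.22 in MOPS and 1.20 in HEPES. Markers with and without LPS are therefore compared under TMM scaling, not by total counts. All 6 macrophage markers had counts in every group. Their sums were 17269 to 19589.8 CPM in MOPS with LPS and 27063 to 28841 in HEPES with LPS. Without LPS they were 16638 to 16885 CPM in MOPS and 25882 to 27259 in HEPES. Most of that sum was Lyz2 (12508 to 24476 CPM), and the 6 markers went both ways, with 2 higher and 2 lower in MOPS with LPS and 2 higher and 3 lower without it. Markers of large peritoneal macrophages summed to 824 to 898 CPM in MOPS with LPS, 616 to 623 in HEPES with LPS, 389 to 416 in MOPS and 292 to 303 in HEPES. The largest part of that sum was Prg4 (137 to 776 CPM), and these 6 markers also went both ways. With LPS, 3 were higher and 3 lower in each medium. Between the media, 2 were higher and 2 lower in MOPS, both with and without LPS. Mesothelial, stromal and endothelial markers summed to 19.3 to 22.2 CPM in MOPS with LPS, 39.6 to 52.8 in HEPES with LPS, 18.7 to 18.9 in MOPS and 51.4 to 54.3 in HEPES. Vwf ran from 10.1 to 47.6 CPM, and the next highest of these markers, Col1a2, reached 3.99. Of the 6 with enough counts to be tested, 2 were lower in MOPS with LPS and 1 without it, and none was higher. The 10 B cell markers also had counts in every group and moved with the medium, summing to 129.6 to 143 CPM in MOPS with LPS, against 35.8 to 42.7 in HEPES with LPS. Without LPS the sums were 219.9 to 229 CPM in MOPS, against 111 to 186 in HEPES. With LPS, 9 of the 10 B cell markers were higher in MOPS and 1 was lower. They also moved with LPS, lower in 8 of 10 in MOPS and in 10 of 10 in HEPES, and the LPS change differed between the media in 8 of 10, with a median log2 difference of 1.14. In bulk RNA, fewer cells of a type and less RNA per cell cannot be told apart, and the part of RNA from these other cells in the results below was not tested. Markers of T and NK cells summed to at most 1.33 CPM in any library, with Ncr1 at 0 counts in all. Granulocyte and mast cell markers summed to 238 to 246 CPM in MOPS with LPS, 185 to 211 in HEPES with LPS, 316 to 326 in MOPS and 290.5 to 315 in HEPES. Most of that was Csf3r (163 to 313 CPM), S100a8 ran from 3.06 to 16.8 CPM and Ly6g was at 0 counts in all. The sums for dendritic cells and small peritoneal macrophages were 245 to 264 CPM in MOPS with LPS, 291 to 353 in HEPES with LPS, 177 to 200.1 in MOPS and 193 to 213 in HEPES, mostly Itgax (117 to 243 CPM).

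Of the 37 members, the 24 called at 1.5-fold or more in any comparison are given with every library's value, and the other 13 by their changes. Levels below are RPKM, that is TMM-scaled CPM per kilobase of the gene length in the table. Changes are log2 fold changes ± SE from edgeR's quasi-likelihood test, and a gene is called where the p adjusted by Benjamini-Hochberg over all 14506 genes tested was under 0.05. All 37 members passed the filter on low counts. The messages spanned a wide range. By these lengths Sqstm1, Gabarap and Gabarapl1 were the 3 highest, in that order, in each of the 4 groups. In MOPS with LPS they averaged 3138 ± 62.6, 230.3 ± 2.15 and 114 ± 6.44 RPKM (SD, n = 3), and in HEPES with LPS 1989.7 ± 6.75, 266 ± 5.04 and 67.7 ± 3.77. In MOPS the same genes averaged 467 ± 11.8, 196 ± 2.23 and 105 ± 3.28 RPKM, and in HEPES 269.9 ± 11.4, 233 ± 5.46 and 79.9 ± 0.653. The order between genes depends on the length used. With principal transcript lengths, an alternative chosen after seeing the data, Tax1bp1 stood above Gabarapl1 in HEPES with LPS (103 and 74.9 RPKM). The lowest mean in HEPES with LPS was that of Atg2b by the table's lengths, 1.58 ± 0.0680 RPKM, and that of Atg14 by principal transcript lengths, 2.64 RPKM.

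Without LPS, more autophagy genes were higher than lower in MOPS. Of the 37 members, 20 were called higher and 5 lower, while 24.3% and 25.4% of all genes tested were called higher and lower (49.7% either way). The members' median log2 change was 0.178, against -0.0139 over all genes. Changes were modest, with 5 members called at 1.5-fold or more (16.7% of all genes).

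With LPS, 20 members were called higher and 10 lower in MOPS, while 26.9% of all genes were called higher and 26.9% lower (53.8% either way). The median was again 0.180, against 0.00469 over all genes. Now 11 members were called at 1.5-fold or more, against 21.9% of all genes. The comparisons with and without LPS use separate libraries. Across them, 13 members were higher in MOPS in both and 3 were lower in both, against 13.8% and 12.8% of all genes tested. Another 5 were higher without LPS and lower with it, and Optn was lower without LPS and higher with it, against 3.65% and 2.84% of all genes.

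LPS itself moved members both ways. In MOPS, 14 were called higher and 14 lower (34.1% and 34.9% of all genes, 69.0% either way), and in HEPES 15 were higher and 16 lower (35.6% and 41.2% of all genes, 76.9% either way). These splits hold for scaling by TMM, under which the median log2 change of all genes was -0.0345 in MOPS and -0.0841 in HEPES. Scaling by total counts alone put that median at -0.547 in MOPS and -0.669 in HEPES, a shift of -0.512 and -0.585, and then 3 members were higher and 30 lower in MOPS, and 2 were higher and 28 lower in HEPES. The members still higher were Sqstm1 and Tax1bp1 in both media and Optn in MOPS. An LPS increase of any other member is therefore an increase relative to the median gene, and the falls with LPS hold under both scalings. Changes of 1.5-fold or more were called in 9 members in MOPS (38.2% of all genes) and in 17 in HEPES (51.7%). The LPS change differed between the media in 24 of 37 members (39.4% of all genes). The difference, the LPS change in MOPS less that in HEPES, was positive in 14 and negative in 10 (21.9% and 17.6% of all genes).

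**Figure D1:**
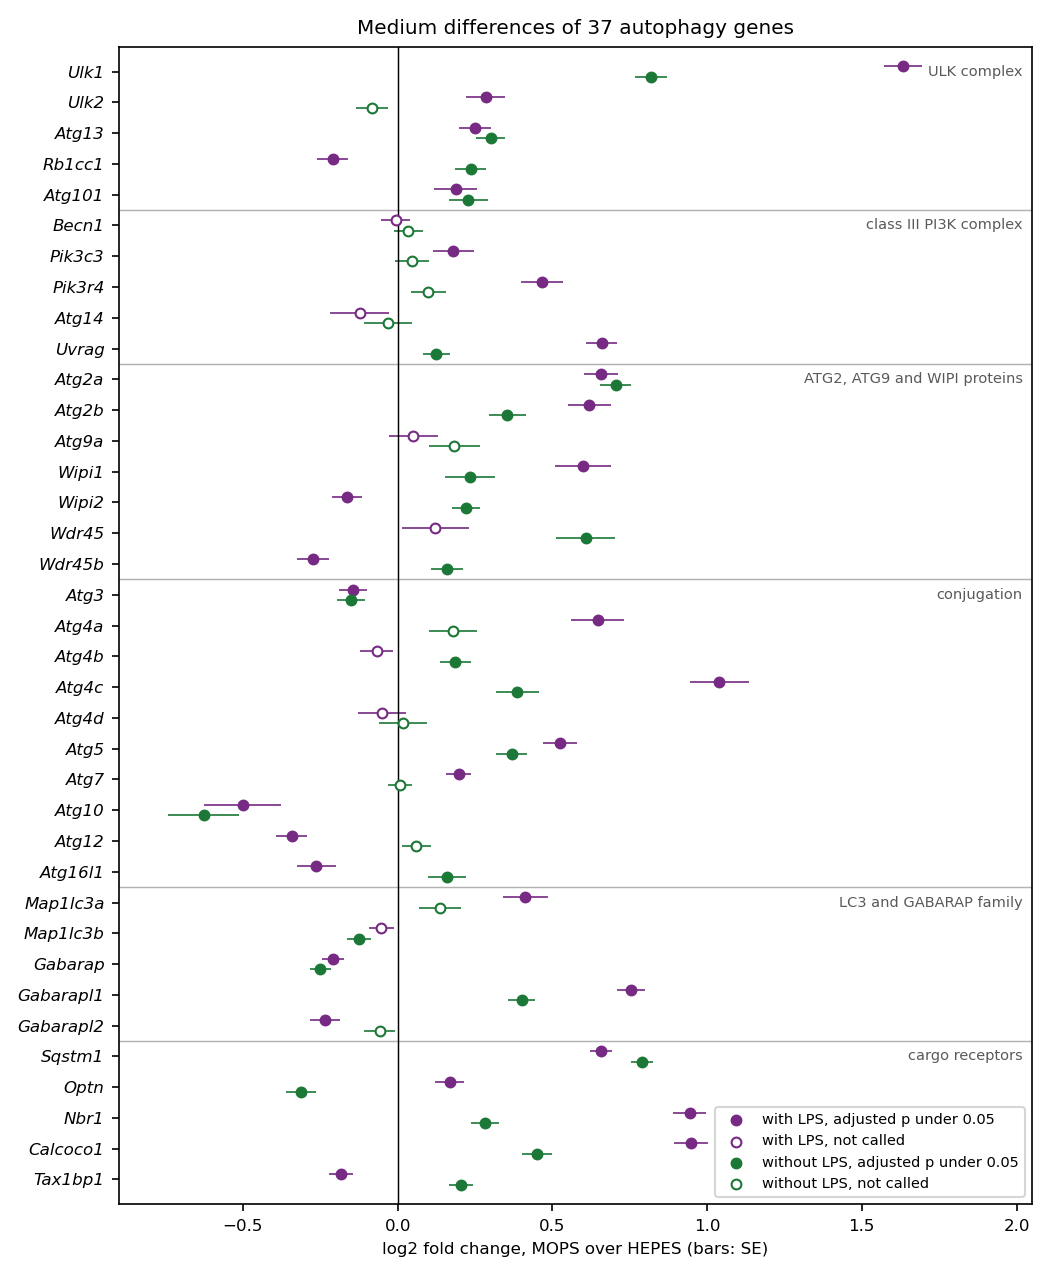
Log2 fold changes of MOPS over HEPES (horizontal axis, with SE bars) for each of the 37 members, with LPS in purple and without LPS in green, and filled where the adjusted p was under 0.05. Ulk1 lies farthest to the right with LPS at 1.63 ± 0.061, and Atg10 lies left of 0 in both comparisons.

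Among the subunits of the ULK complex, Ulk1, the kinase that starts autophagy, showed the largest medium difference of the 37 members in both comparisons of the media. Without LPS Sqstm1 was close behind, at 0.79 ± 0.037, and their order was not tested. Ulk1 is ENSMUSG00000029512 on chromosome 5 from 110784488 to 110810097 on the minus strand (mm10). Ulk1 stood at 9.23, 10.98 and 10.2 RPKM in MOPS with LPS, against 3.39, 3.09 and 3.33 in HEPES with LPS. Without LPS it was at 14.02, 14.1 and 14.8 RPKM in MOPS, against 8.12, 7.95 and 8.25 in HEPES. The media did not overlap in either comparison. MOPS was higher by 1.63 ± 0.061 on the log2 scale with LPS (adjusted p = 4.01e-20) and by 0.82 ± 0.051 without it (adjusted p = 1.42e-14). The LPS change was -0.49 ± 0.051 in MOPS and -1.31 ± 0.061 in HEPES, and the difference between these changes was 0.82 ± 0.08 (adjusted p = 1.52e-09).

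The 250 bases before the RefSeq start of Ulk1, on chr5:110810082-110810331 of the minus strand (RefSeq, GRCm38.p6), are shown with those of Sqstm1, the member that LPS raised most, and Atg3, the E2 enzyme of LC3 conjugation, whose window holds the motif named next. Letters searched on both strands were CACGTG, the core that MiT/TFE factors such as TFEB are known to bind, its longer form GTCACGTG, which overlaps it, and TGACNNNGC, a core of the antioxidant response element. Capitals mark a match. The Sqstm1 window is chr11:50210821-50211070 on the minus strand and the Atg3 window is chr16:45158579-45158828 on the plus strand.
Ulk1: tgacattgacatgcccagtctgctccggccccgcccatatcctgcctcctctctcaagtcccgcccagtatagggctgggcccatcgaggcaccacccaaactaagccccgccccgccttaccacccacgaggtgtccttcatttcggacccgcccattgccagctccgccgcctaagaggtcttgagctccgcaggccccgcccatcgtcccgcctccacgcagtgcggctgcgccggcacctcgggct
Sqstm1: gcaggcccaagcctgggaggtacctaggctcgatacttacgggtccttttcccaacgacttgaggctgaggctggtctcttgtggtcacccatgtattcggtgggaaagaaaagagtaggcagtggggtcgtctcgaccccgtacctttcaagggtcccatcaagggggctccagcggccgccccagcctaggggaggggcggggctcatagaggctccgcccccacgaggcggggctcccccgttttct
Atg3: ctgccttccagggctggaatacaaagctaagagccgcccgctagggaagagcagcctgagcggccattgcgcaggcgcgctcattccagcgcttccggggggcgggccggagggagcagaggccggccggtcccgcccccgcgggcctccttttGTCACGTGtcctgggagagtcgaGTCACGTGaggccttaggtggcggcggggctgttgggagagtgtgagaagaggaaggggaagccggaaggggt
The Atg3 window holds 2 copies of GTCACGTG, and the Ulk1 and Sqstm1 windows hold none of the 3 motifs. Windows were found for 30 of the 37 members. CACGTG was in those of Atg3, Atg5 and Atg7, 10.0% of the 30, and in 6.86% of the 27025 genes with a window. GTCACGTG was in those of Atg3 and Atg7 and in 2.11% of genes. TGACNNNGC was in those of Ulk2, Atg13 and Tax1bp1 and in 11.5% of genes. A match is a description of letters and not a binding site.

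Ulk2, a related kinase, was lowered by LPS in both media. Its levels were 5.51, 4.98 and 5.20 RPKM in MOPS with LPS, against 4.05, 4.28 and 4.55 in HEPES with LPS. Untreated libraries had 8.82, 8.37 and 8.48 RPKM in MOPS, against 9.07, 8.65 and 9.48 in HEPES. With LPS the media did not overlap and MOPS was higher by 0.28 ± 0.063, while without LPS they overlapped and the difference of -0.08 ± 0.052 was not called. The LPS change was -0.71 ± 0.056 in MOPS and -1.08 ± 0.058 in HEPES, with a difference of 0.37 ± 0.081 between them.

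Rb1cc1 encodes FIP200, the scaffold of the complex. Rb1cc1 ran at 4.63, 4.65 and 4.77 RPKM in MOPS with LPS, against 5.15, 5.68 and 5.41 in HEPES with LPS. The untreated libraries showed 4.32, 3.91 and 4.15 RPKM in MOPS, against 3.62, 3.47 and 3.42 in HEPES. Thus it was lower in MOPS with LPS (-0.21 ± 0.049) and higher in MOPS without it (0.24 ± 0.049), with no overlap either time. LPS raised Rb1cc1 by 0.18 ± 0.049 in MOPS and 0.63 ± 0.049 in HEPES relative to the median gene, but scaling by total counts gave -0.33 and 0.0434. Atg13 and Atg101, the adaptor subunits, were higher in MOPS with LPS by 0.25 ± 0.051 and 0.19 ± 0.069 and without LPS by 0.30 ± 0.048 and 0.23 ± 0.064. Under TMM scaling LPS changed neither past the test in either medium. Total counts called both lower with LPS, Atg13 at -0.57 in MOPS and -0.59 in HEPES and Atg101 at -0.55 and -0.58. The Atg101 call between the media with LPS (adjusted p = 0.0233, and 9.95e-04 to 0.275 over the alternatives) was lost without MOPS with LPS library 7 (adjusted p = 0.275) or 9 (0.0698), or HEPES with LPS library 11 (0.186) or 12 (0.229), and by DESeq2 (0.0617).

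**Figure D2:**
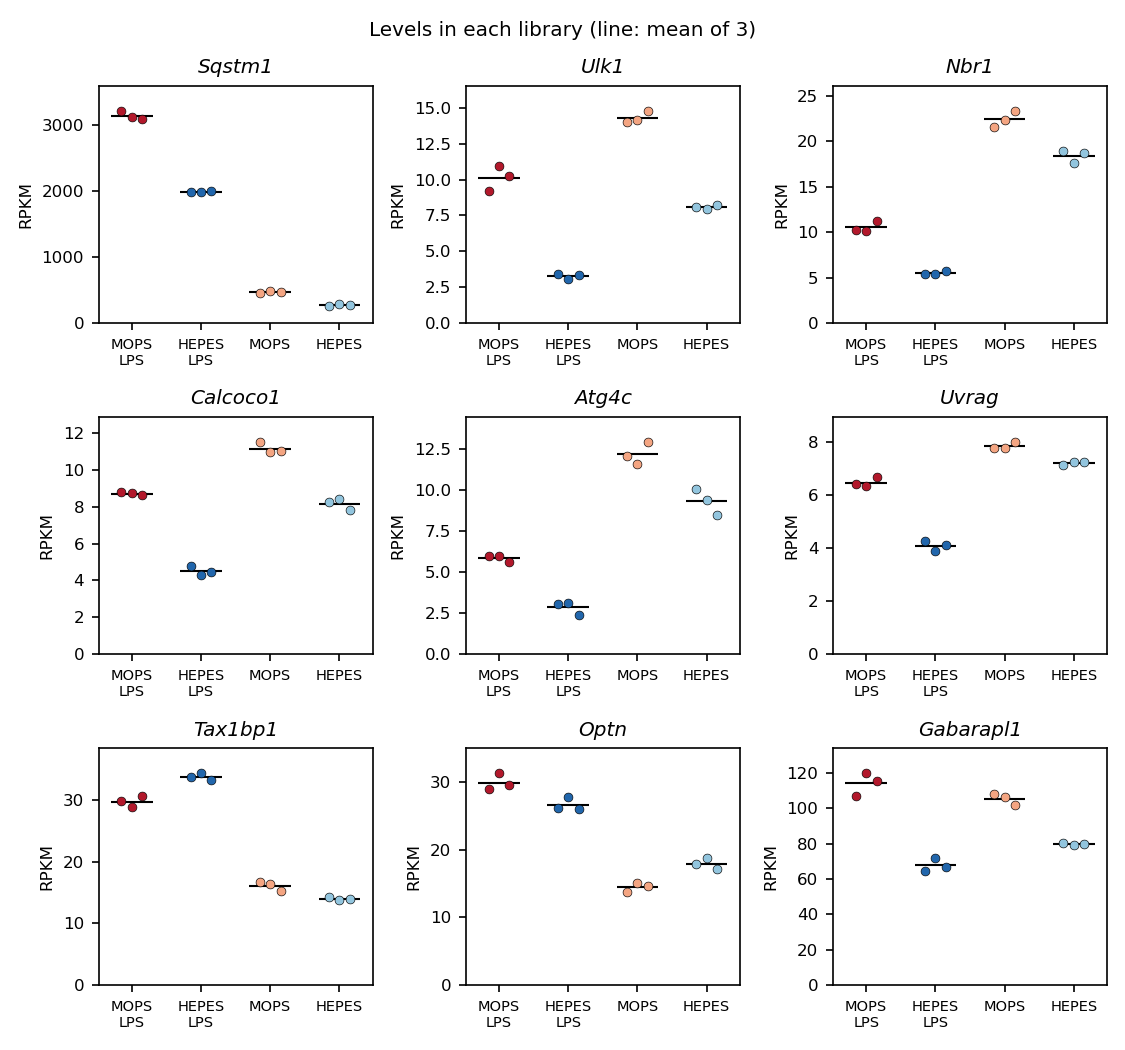
RPKM (vertical axes, from 0) in each library for 9 members, by group, with the mean of 3 libraries as a line. Ulk1, Nbr1, Calcoco1, Atg4c and Uvrag are lower with LPS in both media and lie higher in MOPS than in HEPES, while Sqstm1, Tax1bp1 and Optn lie higher with LPS at TMM scaling (Optn in HEPES is at -0.0160 by total counts).

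The class III PI3-kinase complex makes the lipid PI3P. Its genes changed mostly with LPS: Pik3c3, Pik3r4, Atg14 and Uvrag fell in both media, and Becn1 was higher by 0.47 ± 0.047 in MOPS and 0.51 ± 0.047 in HEPES relative to the median gene but at -0.0440 and -0.0747 by total counts. Becn1, the Beclin 1 scaffold, did not pass the test between the media (-0.01 ± 0.048 with LPS and 0.03 ± 0.047 without).

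Uvrag marks the form of the complex that acts on later, endosomal membranes. Uvrag was found at 6.41, 6.33 and 6.68 RPKM in MOPS with LPS, against 4.28, 3.91 and 4.11 in HEPES with LPS. In untreated cells it was at 7.78, 7.80 and 7.999 RPKM in MOPS, against 7.13, 7.25 and 7.25 in HEPES. No groups overlapped. MOPS was higher by 0.66 ± 0.05 with LPS (adjusted p = 1.20e-12) and by only 0.12 ± 0.044 without it (adjusted p = 0.0199, and 0.00581 to 0.0712 over the alternatives). That smaller call was lost on leaving out MOPS library 3 (adjusted p = 0.0712), without HEPES library 4 (0.0643) and with no filter on low counts (0.0705). LPS lowered Uvrag, at -0.28 ± 0.046 in MOPS and -0.81 ± 0.049 in HEPES, and these changes differed by 0.53 ± 0.067 (adjusted p = 1.33e-07).

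Pik3r4, the regulatory subunit VPS15, had 3.08, 3.08 and 3.15 RPKM in MOPS with LPS, against 2.47, 2.18 and 2.08 in HEPES with LPS. Levels were 4.61, 4.26 and 4.42 RPKM in MOPS, against 4.40, 4.01 and 3.99 in HEPES. The media separated with LPS (MOPS higher by 0.47 ± 0.068) and overlapped without it (0.10 ± 0.057, not called). LPS lowered it, at -0.51 ± 0.061 in MOPS and -0.88 ± 0.064 in HEPES, a difference of 0.37 ± 0.089. Pik3c3, the catalytic subunit VPS34, had 4.88, 5.07 and 5.37 RPKM in MOPS with LPS, against 4.31, 4.44 and 4.76 in HEPES with LPS. Its untreated values were 8.26, 7.90 and 7.78 RPKM in MOPS, against 7.65, 7.62 and 7.92 in HEPES. LPS lowered Pik3c3, at -0.64 ± 0.061 in MOPS and -0.78 ± 0.062 in HEPES. Its medium difference with LPS, 0.18 ± 0.067 (adjusted p = 0.0236, and 0.00105 to 0.251 over the alternatives), was lost on leaving out any 1 of the 6 libraries with LPS, with adjusted p from 0.0548 to 0.251, and by DESeq2 (0.0661).

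Atg14, which directs the complex to the site where autophagosomes form, fell with LPS in both media. It had 1.95, 2.13 and 2.19 RPKM in MOPS with LPS, against 2.15, 2.31 and 2.37 in HEPES with LPS. Without LPS it had 3.71, 4.01 and 3.88 RPKM in MOPS, against 4.16, 3.92 and 3.79 in HEPES. The media overlapped with and without LPS, at -0.12 ± 0.096 and -0.03 ± 0.077, neither called. LPS lowered Atg14, at -0.89 ± 0.087 in MOPS and -0.80 ± 0.086 in HEPES, and the difference of -0.09 ± 0.12 was not called (adjusted p = 0.591).

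Of the 7 genes for ATG2, ATG9 and WIPI proteins, 6 were higher in MOPS without LPS and none lower, beside 24.3% and 25.4% of all genes. With LPS 3 were higher and 2 lower, beside 26.9% of all genes each way. Atg2a and Atg2b encode lipid-transfer proteins that feed the growing membrane. Atg2a had 8.46, 9.36 and 8.81 RPKM in MOPS with LPS, against 5.55, 5.46 and 5.89 in HEPES with LPS. Untreated, it had 9.75, 10.2 and 10.8 RPKM in MOPS, against 6.10, 6.12 and 6.65 in HEPES. MOPS was above HEPES without overlap, by 0.66 ± 0.055 with LPS and 0.70 ± 0.051 without (adjusted p = 1.09e-11 and 5.30e-13). Under TMM scaling the LPS change was small, -0.21 ± 0.051 in MOPS and -0.16 ± 0.055 in HEPES. By total counts it was -0.72 in MOPS and -0.74 in HEPES. The HEPES call (adjusted p = 0.0102, and 2.71e-13 to 0.173 over the alternatives) was lost with RLE size factors (adjusted p = 0.0517), by DESeq2 (0.0817), in a fit of the HEPES groups alone (0.0565), and without HEPES library 6 (0.0678), MOPS with LPS library 7 (0.0509) or 8 (0.0516), or HEPES with LPS library 10 (0.128) or 11 (0.173).

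Atg2b stood at 2.30, 2.59 and 2.37 RPKM in MOPS with LPS, against 1.64, 1.51 and 1.58 in HEPES with LPS. Its untreated libraries had 2.92, 3.17 and 3.10 RPKM in MOPS, against 2.58, 2.33 and 2.27 in HEPES. Atg2b was higher in MOPS by 0.62 ± 0.069 with LPS and 0.35 ± 0.059 without, and LPS lowered it, at -0.34 ± 0.061 in MOPS and -0.60 ± 0.066 in HEPES. Atg2b shares 383 exon bases with Gskip on the opposite strand, and Gskip had 79.8% as many counts. Since the strand setting is not given in the sources used here, reads from those bases cannot be told apart.

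Atg9a encodes a lipid scramblase carried on vesicles. It had 5.26, 5.99 and 5.07 RPKM in MOPS with LPS, against 5.28, 5.54 and 4.95 in HEPES with LPS. Without LPS there were 3.79, 3.06 and 3.95 RPKM in MOPS, against 3.26, 3.12 and 3.09 in HEPES. The media overlapped both with and without LPS and neither difference was called (0.05 ± 0.08 and 0.18 ± 0.081). The difference without LPS was called with RLE size factors, with total-count scaling, in a fit of the untreated groups alone and without MOPS library 2 or MOPS with LPS library 8, with adjusted p from 0.00306 to 0.0475. With LPS Atg9a was higher by 0.60 ± 0.08 in MOPS and 0.74 ± 0.081 in HEPES relative to the median gene, calls that total counts did not make (0.0910 and 0.15). Its exons share 46 bases with Ankzf1 on the opposite strand, which had 78.2% as many counts. They also share 1832 bases with Gm29253 on the same strand, which had 0 counts. The effect of these overlaps on the Atg9a level was not tested.

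The WIPI proteins bind PI3P, and their 4 genes parted under LPS. Wipi1 had 4.56, 4.34 and 4.50 RPKM in MOPS with LPS, against 3.27, 2.82 and 2.75 in HEPES with LPS. It had 4.07, 3.88 and 4.64 RPKM in MOPS, against 3.87, 3.42 and 3.39 in HEPES. Wipi1 was higher in MOPS by 0.60 ± 0.09 with LPS (adjusted p = 1.17e-06) and by 0.23 ± 0.081 without (adjusted p = 0.0172, and 0.00800 to 0.150 over the alternatives). The smaller call was lost on leaving out MOPS library 3 (adjusted p = 0.150) or HEPES library 5 (0.0746) or 6 (0.0801). LPS lowered Wipi1, at -0.27 ± 0.089 in HEPES (adjusted p = 0.00655), a call lost without HEPES with LPS library 11 (0.0768) or 12 (0.104), and its change in MOPS was not called (0.09 ± 0.082). Wdr45b, also known as WIPI3, went the other way with LPS. Wdr45b had 15.2, 13.7 and 13.4 RPKM in MOPS with LPS, against 16.8, 16.9 and 17.4 in HEPES with LPS. Its untreated values were 12.1, 11.6 and 11.7 RPKM in MOPS, against 11.1, 10.1 and 10.4 in HEPES. MOPS was lower, at -0.27 ± 0.051 with LPS and higher by 0.16 ± 0.051 without, a call lost without HEPES library 5 (adjusted p = 0.0671, in a range of 0.00355 to 0.0671). LPS raised Wdr45b by 0.26 ± 0.051 in MOPS and 0.69 ± 0.051 in HEPES relative to the median gene, but by total counts the values were -0.26 and 0.10.

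Wdr45, also known as WIPI4, had 3.08, 3.09 and 2.80 RPKM in MOPS with LPS, against 2.60, 3.01 and 2.64 in HEPES with LPS. Levels without LPS were 4.09, 4.14 and 3.73 RPKM in MOPS, against 2.52, 2.40 and 2.95 in HEPES. Only the untreated media separated: MOPS was higher by 0.61 ± 0.096 without LPS (adjusted p = 3.82e-06), while 0.12 ± 0.11 with LPS was not called. LPS lowered Wdr45, at -0.42 ± 0.099 in MOPS and the value in HEPES was 0.07 ± 0.11, not called, with a difference of -0.49 ± 0.14 between the media (adjusted p = 0.00783). Wdr45 shares 818 exon bases with Gm45208 on the same strand, which had 0 counts, and the effect on its level was not tested. Wipi2 was lower in MOPS with LPS (-0.16 ± 0.048, and -0.0706, not called, by total counts) and higher without it (0.22 ± 0.046). With LPS Wipi2 was higher in HEPES by 0.28 ± 0.047 relative to the median gene and at -0.30 by total counts. In MOPS its LPS change of -0.10 ± 0.047 was not called, but total counts called it lower, at -0.61. It was also called with no filter on low counts and without MOPS with LPS library 7 or HEPES with LPS library 10.

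The conjugation genes split. With LPS 4 of 10 were higher and 4 lower in MOPS (26.9% of all genes each way), and without LPS 4 were higher and 2 lower (24.3% and 25.4% of all genes). Atg4c, a cysteine protease that trims LC3 and GABARAP, had the largest difference of the 10 between the media with LPS. It is ENSMUSG00000028550 on chromosome 4 from 99193934 to 99259787 on the plus strand. Atg4c had 5.95, 5.94 and 5.58 RPKM in MOPS with LPS, against 3.02, 3.11 and 2.36 in HEPES with LPS. The untreated libraries had 12.1, 11.5 and 12.9 RPKM in MOPS, against 10.1, 9.36 and 8.44 in HEPES. The media did not overlap, and Atg4c was higher in MOPS by 1.04 ± 0.094 with LPS (adjusted p = 7.77e-11) and 0.39 ± 0.069 without. LPS lowered Atg4c, at -1.06 ± 0.075 in MOPS and -1.71 ± 0.087 in HEPES, with a difference of 0.65 ± 0.12 (adjusted p = 4.10e-05).

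The other ATG4 proteases behaved differently. Atg4a had 7.84, 7.66 and 6.86 RPKM in MOPS with LPS, against 4.38, 5.42 and 4.49 in HEPES with LPS. Without LPS it was at 6.76, 6.67 and 7.07 RPKM in MOPS, against 6.001, 6.21 and 5.89 in HEPES. MOPS was higher by 0.65 ± 0.087 with LPS, and 0.18 ± 0.078 without LPS missed the threshold (adjusted p = 0.0585, and 0.0288 to 0.168 over the alternatives) although its groups did not overlap. That difference was called with RLE size factors (0.0311), with total-count scaling (0.0338), by DESeq2 (0.0494), in a fit of the untreated groups alone (0.0288) and without HEPES with LPS library 10 (0.0465) or 11 (0.0368). LPS lowered Atg4a, at -0.34 ± 0.085 in HEPES, and 0.13 ± 0.08 in MOPS was not called. The table also holds an Atg4a pseudogene, whose reads could be mistaken for those of Atg4a.

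Atg4d had 3.52, 3.31 and 3.04 RPKM in MOPS with LPS, against 3.51, 3.44 and 3.28 in HEPES with LPS. In untreated cells there were 2.08, 2.40 and 2.24 RPKM in MOPS, against 2.18, 2.06 and 2.43 in HEPES. The media overlapped in both comparisons and their differences were not called (-0.05 ± 0.077 with LPS and 0.02 ± 0.078 without). LPS raised Atg4d by 0.55 ± 0.077 in MOPS and 0.62 ± 0.077 in HEPES relative to the median gene, calls not made by total counts (0.0371 and 0.0326). Atg4d shares 1405 exon bases with Kri1 on the opposite strand, which had 85.02% as many counts. Atg4b was higher in MOPS without LPS (0.19 ± 0.051) and not called between the media with LPS (-0.07 ± 0.053). LPS raised it by 0.19 ± 0.052 in MOPS and 0.44 ± 0.052 in HEPES relative to the median gene, against -0.32 and -0.14 by total counts.

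Atg10, which joins ATG12 to ATG5, was the member farthest below HEPES in MOPS. Atg10 had 2.90, 3.25 and 2.98 RPKM in MOPS with LPS, against 4.28, 4.34 and 4.34 in HEPES with LPS. Values were 2.67, 2.69 and 2.77 RPKM in MOPS, against 4.56, 3.84 and 4.16 in HEPES. MOPS was lower without overlap, at -0.50 ± 0.12 with LPS (adjusted p = 9.14e-04) and -0.63 ± 0.11 without (adjusted p = 3.03e-05). LPS changes of Atg10, 0.17 ± 0.13 in MOPS and 0.04 ± 0.11 in HEPES, were not called, while total counts called it lower in both (-0.34 and -0.54).

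Atg5, Atg7, Atg12 and Atg16l1 act with Atg10 or downstream of it. Atg5 was higher in MOPS by 0.52 ± 0.056 with LPS and 0.37 ± 0.049 without, and LPS lowered it, at -0.39 ± 0.051 in MOPS and -0.55 ± 0.054 in HEPES. Its partners Atg12 and Atg16l1 were lower in MOPS with LPS, at -0.34 ± 0.05 and -0.26 ± 0.064. Without LPS, Atg12 was not called (0.06 ± 0.047). Atg16l1 was then higher by 0.16 ± 0.06 (adjusted p = 0.0283, and 0.00641 to 0.115 over the alternatives), a call lost on leaving out MOPS library 1, 2 or 3 or HEPES library 5 or 6, with adjusted p from 0.0554 to 0.115. Atg7, the activating enzyme, was higher in MOPS with LPS by 0.20 ± 0.041 and at 0.01 ± 0.04 without. Atg3, whose window is printed above, was lower in MOPS, at -0.14 ± 0.046 with LPS and -0.15 ± 0.044 without. The Atg3 difference with LPS was not called by total counts (-0.0515).

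Under TMM scaling Atg7, Atg12, Atg16l1 and Atg3 moved little with LPS. Atg7 was lowered in HEPES, at -0.24 ± 0.041, and -0.06 ± 0.04 in MOPS was not called. By total counts Atg7 was called lower in both media, at -0.83 in HEPES and -0.57 in MOPS. Atg12 was lowered in MOPS, at -0.24 ± 0.049, and at -0.76 by total counts. In HEPES Atg12 was raised by 0.16 ± 0.048 relative to the median gene and stood at -0.43 by total counts, and that call was lost with no filter on low counts (adjusted p = 0.132, in a range of 1.60e-09 to 0.132). Atg16l1 was raised in HEPES by 0.32 ± 0.062 relative to the median gene, against -0.27 by total counts. In MOPS its change of -0.10 ± 0.062 was not called, but total counts called it lower, at -0.62. It was also called with no filter on low counts and without MOPS with LPS library 8. Atg3 was raised by 0.13 ± 0.045 in MOPS and 0.12 ± 0.045 in HEPES relative to the median gene, against -0.39 and -0.47 by total counts. With no filter on low counts both Atg3 calls were lost (adjusted p = 0.163 in MOPS and 0.375 in HEPES, in ranges of 3.55e-09 to 0.163 and 4.08e-11 to 0.375). The MOPS call was also lost without MOPS library 1 or 3 or MOPS with LPS library 7 or 9, with adjusted p from 0.0542 to 0.0907, and the HEPES call without HEPES library 4 (0.0768).

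In the LC3 and GABARAP family, whose proteins are fixed to the autophagosome membrane, the medium shifted the balance between Gabarap and Gabarapl1. Gabarapl1 had 107, 119.8 and 115 RPKM in MOPS with LPS, against 64.6, 71.9 and 66.7 in HEPES with LPS. Without LPS it had 108, 106 and 102 RPKM in MOPS, against 80.5, 79.2 and 79.97 in HEPES. The media were apart: Gabarapl1 was higher in MOPS by 0.75 ± 0.045 with LPS (adjusted p = 3.44e-15) and 0.40 ± 0.043 without (adjusted p = 3.66e-09). LPS lowered Gabarapl1, at -0.24 ± 0.045 in HEPES. In MOPS it was raised by 0.11 ± 0.043 relative to the median gene, but total counts gave -0.40. The MOPS call (adjusted p = 0.0203, and 2.25e-09 to 0.151 over the alternatives) was also lost with no filter on low counts (adjusted p = 0.150) and without MOPS library 3 (0.109) or MOPS with LPS library 8 (0.151) or 9 (0.0551).

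Gabarap was lower in MOPS, at -0.21 ± 0.035 with LPS and -0.25 ± 0.035 without. LPS raised Gabarap by 0.23 ± 0.035 in MOPS and 0.19 ± 0.035 in HEPES relative to the median gene, against -0.28 and -0.39 by total counts. Gabarapl2, also called GATE-16, had 20.4, 20.3 and 21.4 RPKM in MOPS with LPS, against 23.8, 24.4 and 24.9 in HEPES with LPS. Its untreated values were 15.2, 15.3 and 14.8 RPKM in MOPS, against 15.4, 15.96 and 15.8 in HEPES. Gabarapl2 was lower in MOPS with LPS, at -0.23 ± 0.049, and -0.06 ± 0.049 without LPS was not called. LPS raised it by 0.45 ± 0.05 in MOPS and 0.63 ± 0.049 in HEPES relative to the median gene, against -0.0594 and 0.0446 by total counts.

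The LC3 genes differed from each other. Map1lc3a was higher in MOPS with LPS by 0.41 ± 0.072 and at 0.14 ± 0.068 without, not called. LPS raised Map1lc3a by 0.30 ± 0.069 in MOPS relative to the median gene, against -0.21 by total counts, and 0.03 ± 0.072 in HEPES was not called. Map1lc3b, the usual marker of autophagosomes, was at -0.05 ± 0.04 with LPS, not called, and lower, at -0.13 ± 0.039 without LPS, a call lost on leaving out MOPS library 3 (adjusted p = 0.0530, in a range of 0.00663 to 0.0530). LPS changes of Map1lc3b did not pass the test in either medium (0.04 ± 0.04 in MOPS and -0.04 ± 0.04 in HEPES), although by total counts it fell in both (-0.48 and -0.62). Its exons share 58 bases with Zcchc14 on the opposite strand, which had 18.1% as many counts.

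Taken as shares of the summed RPKM of the 5 genes, Gabarapl1 held 27.5% ± 1.42 (SD, n = 3) in MOPS with LPS, against 16.8% ± 0.563 in HEPES with LPS. Without LPS it held 29.2% ± 0.351 in MOPS and 21.4% ± 0.544 in HEPES. Gabarap held 55.4% ± 0.520 in MOPS with LPS, 66.2% ± 0.784 in HEPES with LPS, 54.3% ± 0.435 in MOPS and 62.5% ± 0.387 in HEPES. The sum itself was 416 ± 3.70 RPKM in MOPS with LPS, 402 ± 10.4 in HEPES with LPS, 361 ± 6.93 in MOPS and 373 ± 6.45 in HEPES. Shares depend on the length used. The table gives Map1lc3b 7517 bases, while its principal transcript in GENCODE has 2532. With principal transcript lengths, an alternative chosen after seeing the data, the Map1lc3b share in MOPS with LPS was 10.7% in place of 4.88%, and Gabarapl1 held 22.5% in MOPS with LPS against 13.4% in HEPES with LPS.

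**Figure D3:**
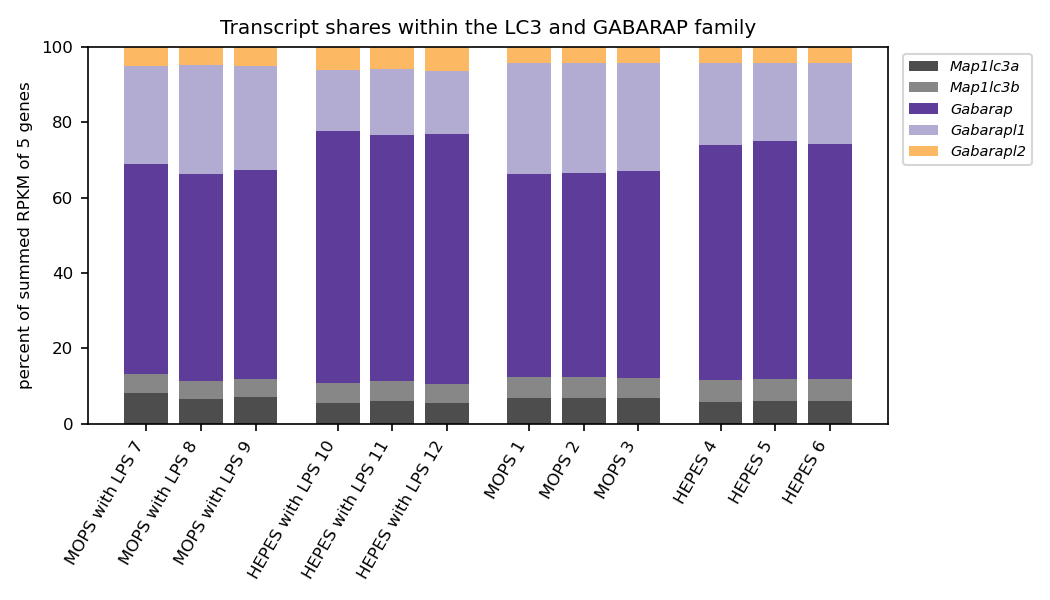
Each bar is 1 library and shows, from 0 to 100%, the share of Map1lc3a, Map1lc3b, Gabarap, Gabarapl1 and Gabarapl2 in the summed RPKM of the 5 genes. The Gabarapl1 share averages 27.5% in MOPS with LPS, against 16.8% in HEPES with LPS.

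All 5 cargo receptor genes were called in all 4 comparisons of groups under TMM scaling, and they went different ways. Of all genes tested, 53.8% were called between the media with LPS, 49.7% without it, 69.0% for LPS in MOPS and 76.9% for LPS in HEPES. Sqstm1, which encodes p62, the receptor for ubiquitin-tagged cargo and a regulator of NRF2, held most of the receptor message. It is ENSMUSG00000015837 on chromosome 11 from 50199366 to 50210827 on the minus strand. Sqstm1 had 3206, 3123 and 3084 RPKM in MOPS with LPS, against 1991, 1982 and 1995 in HEPES with LPS. Untreated libraries had 456, 479 and 464 RPKM in MOPS, against 259.7, 282 and 268 in HEPES. No groups overlapped. LPS raised Sqstm1 by 2.75 ± 0.039 in MOPS and 2.88 ± 0.039 in HEPES, 6.72-fold and 7.37-fold, and total-count scaling gave 2.24 and 2.30. MOPS was higher by 0.66 ± 0.036 with LPS (adjusted p = 5.91e-16) and 0.79 ± 0.037 without (adjusted p = 9.31e-18). In MOPS with LPS this gene alone took 0.885% to 0.906% of a library's counts, against 0.532% to 0.536% in HEPES with LPS.

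Nbr1, a receptor that shares the PB1 and ubiquitin-binding design of p62, moved opposite to it under LPS. It is ENSMUSG00000017119 on chromosome 11 from 101552149 to 101581951 on the plus strand. Nbr1 had 10.3, 10.2 and 11.3 RPKM in MOPS with LPS, against 5.36, 5.37 and 5.76 in HEPES with LPS. Libraries not given LPS had 21.6, 22.3 and 23.3 RPKM in MOPS, against 18.9, 17.6 and 18.7 in HEPES. LPS lowered Nbr1, at -1.09 ± 0.047 in MOPS and -1.75 ± 0.051 in HEPES, a difference of 0.66 ± 0.069 (adjusted p = 5.07e-09). MOPS was higher without overlap, by 0.94 ± 0.053 with LPS and 0.28 ± 0.044 without.

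Calcoco1, a receptor known for endoplasmic reticulum and Golgi turnover, followed the same course. Calcoco1 had 8.79, 8.76 and 8.64 RPKM in MOPS with LPS, against 4.79, 4.31 and 4.48 in HEPES with LPS. Its levels without LPS were 11.5, 10.98 and 11.03 RPKM in MOPS, against 8.28, 8.42 and 7.82 in HEPES. It was higher in MOPS by 0.95 ± 0.056 with LPS and 0.45 ± 0.048 without, and LPS lowered it, at -0.36 ± 0.049 in MOPS and -0.85 ± 0.054 in HEPES, a difference of 0.50 ± 0.074.

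Tax1bp1, a receptor that also restrains NF-kappaB signalling with A20, rose with LPS. Tax1bp1 had 29.8, 28.9 and 30.6 RPKM in MOPS with LPS, against 33.8, 34.3 and 33.2 in HEPES with LPS. In untreated libraries it was at 16.7, 16.4 and 15.3 RPKM in MOPS, against 14.2, 13.8 and 13.9 in HEPES. The LPS increase was 0.88 ± 0.039 in MOPS and 1.27 ± 0.039 in HEPES, and 0.37 and 0.68 by total counts. MOPS was lower, at -0.18 ± 0.039 with LPS and higher by 0.21 ± 0.039 without.

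Optn encodes optineurin, a receptor for bacteria and mitochondria that binds the kinase TBK1. Optn had 28.96, 31.3 and 29.5 RPKM in MOPS with LPS, against 26.2, 27.8 and 25.97 in HEPES with LPS. It had, untreated, 13.7, 15.1 and 14.6 RPKM in MOPS, against 17.9, 18.7 and 17.2 in HEPES. Optn was the reverse of Tax1bp1 between the media, higher in MOPS by 0.17 ± 0.047 with LPS and lower, at -0.31 ± 0.048 without. The smaller call (adjusted p = 0.00313, and 2.57e-05 to 0.123 over the alternatives) was lost without MOPS with LPS library 8 (adjusted p = 0.123) or HEPES with LPS library 10 (0.0736) or 12 (0.101). LPS raised Optn by 1.05 ± 0.048 in MOPS and 0.57 ± 0.048 in HEPES relative to the median gene, and the HEPES value was -0.0160 by total counts. The difference between the LPS changes was 0.48 ± 0.068 (adjusted p = 9.85e-07).

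**Figure D4:**
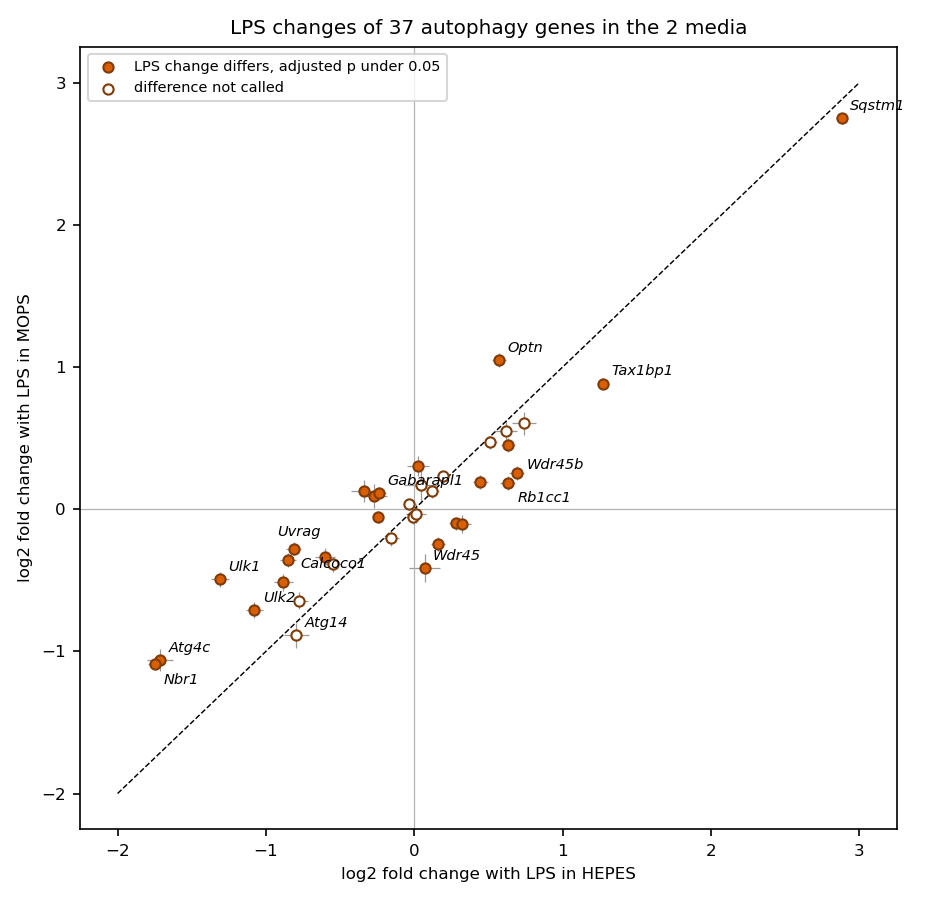
Log2 change with LPS in MOPS (vertical axis) against that in HEPES (horizontal axis) for the 37 members, with SE bars and a dashed line of equal change, under TMM scaling. Filled points are the 24 members whose LPS change differed between the media, and total-count scaling moves the median gene to -0.547 (vertical) and -0.669 (horizontal). Ulk1, Nbr1 and Atg4c lie left of the line and below 0 in both media, and Sqstm1 lies at the top.

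Beyond the 37 members, 62 other genes of the pathway were listed and 61 had enough counts to be tested. In MOPS without LPS, 23 were higher and 16 lower, and with LPS 22 were higher and 19 lower (28 and 14 by total-count scaling). These are 39 and 41 of 61 called, or 63.9% and 67.2%, beside 49.7% and 53.8% of all genes. The LPS change was an increase for 22 and a decrease for 28 in MOPS, and an increase for 26 and a decrease for 27 in HEPES, against 6 and 49 and 8 and 48 by total-count scaling. By TMM 50 of 61 were called in MOPS and 53 in HEPES, beside 69.0% and 76.9% of all genes. Those called at 2-fold or more are named by a rule given with the processing. Prkab2, Trp53inp2 and Nufip1 were also called higher with LPS by total-count scaling in the medium given for each. Among kinases upstream of ULK1, Prkag2, a subunit of the energy sensor AMPK, was higher in MOPS with LPS by 1.09 ± 0.093 and was lowered by LPS in HEPES, at -1.50 ± 0.088. Prkab2, another AMPK subunit, rose by 1.31 ± 0.09 with LPS in HEPES, and Deptor, an inhibitor of mTOR, was lowered there, at -1.30 ± 0.068.

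Of the 10 regulators of the PI3-kinase complexes, 5 stood higher in MOPS and 2 lower without LPS, and 4 stood higher and 4 lower with it, 7 and 8 of 10 called beside 49.7% and 53.8% of all genes. Trp53inp1, which binds LC3, was higher in MOPS with LPS by 1.45 ± 0.069 and was lowered by LPS, at -1.44 ± 0.054 in MOPS and -2.32 ± 0.064 in HEPES. Rubcn, the Rubicon protein that restrains autophagosome maturation and is needed for LC3-associated phagocytosis, was lowered by LPS, at -1.90 ± 0.072 in MOPS and -2.45 ± 0.076 in HEPES. Its relative Rubcnl was higher in MOPS with LPS by 1.42 ± 0.28 and was lowered by LPS, at -1.05 ± 0.20 in MOPS and -2.14 ± 0.25 in HEPES. Rubcnl levels were low, 0.127 to 1.08 RPKM over all libraries. Tecpr1, a tethering protein, was lowered by LPS, at -1.49 ± 0.053 in HEPES. Trp53inp2 was raised by LPS in MOPS by 1.06 ± 0.044. The LPS change of Sesn2, a stress-induced inhibitor of mTORC1 signalling, was -0.97 ± 0.056 in MOPS and 0.51 ± 0.054 in HEPES, a difference of -1.48 ± 0.078. These are values relative to the median gene, and total-count scaling called Sesn2 higher in neither medium.

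Of the genes for fusion with lysosomes, 7 of 14 were lower and 3 higher in MOPS without LPS, and 4 were lower and 5 higher with LPS. That is 10 and 9 of 14 called, beside 49.7% and 53.8% of all genes. Plekhm1, an adaptor that tethers autophagosomes to lysosomes, had 6.13, 7.08 and 6.25 RPKM in MOPS with LPS, against 3.60, 3.83 and 3.96 in HEPES with LPS. Without LPS it had 38.9, 39.4 and 40.4 RPKM in MOPS, against 48.4, 47.2 and 47.9 in HEPES. LPS thus lowered it, at -2.61 ± 0.048 in MOPS and -3.65 ± 0.052 in HEPES, a difference of 1.05 ± 0.071. Vps39, a subunit of the HOPS tether, was lowered, at -1.02 ± 0.05 and -1.36 ± 0.052, and Tecpr2, at -1.08 ± 0.075 in MOPS. Among other receptors, Bnip3, which acts in mitophagy, was higher in MOPS with LPS by 1.27 ± 0.10 and was lowered by LPS in HEPES, at -1.31 ± 0.10. Nufip1, a receptor for ribosomes, rose by 1.04 ± 0.063 with LPS in HEPES. Atg9b, a paralog of Atg9a, was lower in MOPS, at -1.52 ± 0.53 with LPS and -1.81 ± 0.33 without, and was lowered by LPS, at -1.32 ± 0.51 in MOPS and -1.60 ± 0.34 in HEPES. Its level was very low, 0.0261 to 0.522 RPKM over all libraries.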

How the data were processed

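Total RNA extracted with Trizol was sequenced in 12 libraries made with the NEBNext Ultra RNA kit, per the labels' protocols. The gene table deposited by the authors gives raw counts, FPKM and a gene length for each gene, per the file headers. The submitters' processing notes list HISAT2 2.0.5, CASAVA 1.8 and featureCounts 1.5.0-p3, with the mm10 genome. The strand setting of the counting is not given in the sources used here. Counts were fitted with edgeR 4.0.16 (R 4.3.3; TMM, filterByExpr, robust quasi-likelihood, all 4 groups, 8 residual degrees of freedom), and p-values were adjusted by Benjamini-Hochberg over 14506 genes. Each SE was obtained from the fold change and its F statistic, as |log2 fold change| over the root of F. TMM factors averaged 0.854 in MOPS with LPS, 0.801 in HEPES with LPS, 1.22 in MOPS and 1.20 in HEPES, and the common biological coefficient of variation was 4.62%. Replicates differed by more than sampling noise (chi-square per degree of freedom 2.66 to 6.54). The members and lists were chosen with earlier results of these data known. The other pathway genes are named where called at 2-fold or more, except 1 that is not reported here. Alternatives were RLE size factors, total-count scaling, no count filter, DESeq2 1.42.0, a fit of only the groups compared, each library left out and, for levels and shares, principal transcript lengths and (LC3 and GABARAP only) the deposited FPKM. Steps were tested on simulated data. Exon overlaps were taken from GENCODE vM21, whose coordinates equal those of 36 of 37 members.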

Additional observations from a re-analysis of the deposited data

Results flagged for a closer look

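The response to LPS differed between the media in 24 members, by edgeR's test of the interaction term with Benjamini-Hochberg adjustment over all genes (n = 3 libraries in each of 4 groups). Values, in log2 units, are the response in MOPS less the response in HEPES. The same call was made for 39.4% of all genes tested.

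Among kinases and the PI3-kinase complex, the difference was 0.82 for Ulk1, 0.37 for Ulk2, -0.45 for the scaffold Rb1cc1, 0.37 for Pik3r4 and 0.53 for Uvrag. LPS lowered Ulk1, Ulk2, Pik3r4 and Uvrag in both media, and the fall was smaller in MOPS for each. In the ATG2 and WIPI group it was 0.27 for Atg2b, 0.36 for Wipi1, -0.38 for Wipi2, -0.49 for Wdr45 and -0.43 for Wdr45b. The Atg2b call was lost by DESeq2 (adjusted p = 0.0766) and without MOPS library 1, HEPES library 4, MOPS with LPS library 8 or HEPES with LPS library 11 or 12 (adjusted p = 0.00386 to 0.170 over the alternatives). The Wipi1 call was lost without MOPS library 2, HEPES library 4, MOPS with LPS library 7 or HEPES with LPS library 11 or 12 (adjusted p = 0.00449 to 0.105 over the alternatives).

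Among conjugation genes it was 0.47 for Atg4a, -0.25 for Atg4b, 0.65 for Atg4c, 0.19 for Atg7, -0.40 for Atg12 and -0.42 for Atg16l1. The Atg7 call was lost without MOPS with LPS library 7 or HEPES with LPS library 10, 11 or 12 (adjusted p = 3.96e-04 to 0.103 over the alternatives). In the LC3 and GABARAP family it was 0.28 for Map1lc3a, 0.35 for Gabarapl1 and -0.18 for Gabarapl2. The Map1lc3a call was lost with RLE size factors, by DESeq2 and without MOPS library 3, HEPES library 5 or 6, MOPS with LPS library 7 or HEPES with LPS library 10 or 12 (adjusted p = 0.00472 to 0.270 over the alternatives). The Gabarapl2 call was lost with total-count scaling, with no count filter and without MOPS library 1 or 2 or HEPES library 4, 5 or 6 (adjusted p = 0.0112 to 0.256 over the alternatives).

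Among cargo receptors it was -0.13 for Sqstm1, 0.48 for Optn, 0.66 for Nbr1, 0.50 for Calcoco1 and -0.39 for Tax1bp1. The Sqstm1 difference was the smallest of the 24 in size, and its call (adjusted p = 0.0390) was lost with total-count scaling, with no count filter and without MOPS library 2 or 3, HEPES library 4 or 6 or MOPS with LPS library 9 (adjusted p = 0.00282 to 0.318 over the alternatives). By total-count scaling Atg5 and Map1lc3b were called as well (0.23 and 0.14).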

How the results depend on the processing

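Counts of members called higher and lower, and of all genes called, stayed within 1.5 times of the counts reported under every alternative and without each library, except for LPS under total-count scaling. There 3 members were higher and 30 lower in MOPS, and 2 higher and 28 lower in HEPES, since the median of all genes shifts, as given above. The log2 change with LPS then turned negative in MOPS to -0.33 for Rb1cc1, -0.0440 for Becn1, -0.42 for Wipi1, -0.26 for Wdr45b, -0.39 for Atg3, -0.39 for Atg4a, -0.32 for Atg4b, -0.34 for Atg10, -0.21 for Map1lc3a, -0.48 for Map1lc3b, -0.28 for Gabarap, -0.40 for Gabarapl1 and -0.0594 for Gabarapl2, and in HEPES to -0.58 for Atg101, -0.0747 for Becn1, -0.30 for Wipi2, -0.52 for Wdr45, -0.47 for Atg3, -0.14 for Atg4b, -0.54 for Atg10, -0.43 for Atg12, -0.27 for Atg16l1, -0.56 for Map1lc3a, -0.39 for Gabarap and -0.0160 for Optn. The shift was 0.0925 between the media with LPS and 0.0206 without. Of 185 member values, calls were lost for 2 with RLE size factors, 7 with no count filter and 5 by DESeq2, and 2, 2 and 1 were gained. Of 2220 values with 1 library left out, 70 lost and 9 gained their call, and the 39 that changed sign were called in neither setting. Shares in the LC3 and GABARAP family from the deposited FPKM moved by less than 1 SD. With principal transcript lengths, Map1lc3a held 5.74% in MOPS with LPS, against 4.33% in HEPES with LPS. No paired analysis was possible because the libraries are numbered 1 to 12 with no number shared between groups. Depth limits the members with the lowest counts most, Atg10 (93 to 232 per library), Wdr45 (157 to 412) and Atg14 (164 to 532).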

Other observations

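Shares of the summed RPKM within sets of related genes describe which paralog supplied most of the message (mean ± SD, n = 3 libraries, no test). Of the summed Ulk1 and Ulk2 message, Ulk1 held 65.9% ± 3.10 in MOPS with LPS, 43.2% ± 2.01 in HEPES with LPS, 62.6% ± 1.09 in MOPS and 47.2% ± 0.676 in HEPES. With principal transcript lengths Ulk1 held 69.8% in MOPS with LPS, 47.7% in HEPES with LPS, 66.6% in MOPS and 51.7% in HEPES, so which of the pair is larger in HEPES without LPS depends on the length. Of the 4 ATG4 protease genes, Atg4c held 26.5% ± 0.141 in MOPS with LPS, 16.9% ± 1.61 in HEPES with LPS, 46.8% ± 1.25 in MOPS and 42.7% ± 1.91 in HEPES. Atg4b held 24.7% ± 1.39 in MOPS with LPS, 34.1% ± 1.53 in HEPES with LPS, 18.3% ± 0.718 in MOPS and 19.2% ± 0.239 in HEPES. Atg4a held the largest share in MOPS with LPS, 33.9% ± 1.02. Its share was 28.5% ± 2.22 in HEPES with LPS, 26.3% ± 0.0583 in MOPS and 27.8% ± 1.03 in HEPES. With principal transcript lengths Atg4b held 35.97%, Atg4a 30.1% and Atg4c 20.5% in MOPS with LPS, so their order there depends on the length.

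Within the 4 WIPI genes, Wipi1 held 16.4% ± 0.615 in MOPS with LPS, 10.1% ± 1.06 in HEPES with LPS, 16.1% ± 1.43 in MOPS and 16.2% ± 0.805 in HEPES, so that HEPES with LPS stood apart from the other groups. Within the 5 cargo receptors, Sqstm1 held 97.5% ± 0.0830 in MOPS with LPS, 96.6% ± 0.0693 in HEPES with LPS, 87.9% ± 0.168 in MOPS and 82.2% ± 0.713 in HEPES. Shares use the gene lengths of the table except where stated.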
